A study of Mus musculus with 8 samples.

Results

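The genes described here encode the activators of plasminogen, the receptor that holds one of them at the cell surface, an inhibitor of both, and a pair of surface receptors that restrain clotting on the vessel wall: Plat, Plau, Plaur, Serpine2, Procr and Thbd. They were chosen by name, as all probe sets of the array that map to exactly 1 gene symbol in that set of 6. A probe set is the group of short oligonucleotides that measures 1 transcript on the array. Of the 6 genes 5 were measured, by 6 of the 12422 probe sets that are not controls: Plat, Plau, Plaur and Procr by 1 each and Thbd by 2. No probe set carried the symbol Serpine2, which encodes protease nexin, so that gene was not analysed here. Total RNA was measured on 8 single-colour Affymetrix mouse arrays, 4 of subconfluent and 4 of confluent cultures, with 1 culture on each array. The subconfluent cultures covered less than 50% of the dish, and the confluent cultures were mature monolayers that had filled it. The labels call the cells of both groups aortic endothelial cells of the mouse, and neither carries a stated treatment, transgene or deletion. The sources used here do not give the strain, the animals' age, the passage, or whether the cells were a primary culture or a line. The comparison of the groups asks how transcript levels differ between cells with free space around them and cells in a closed layer.

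Plasminogen is a circulating zymogen that becomes plasmin, a protease that dissolves fibrin and degrades matrix, when tissue-type activator (Plat) or urokinase (Plau) cuts it. Urokinase acts mainly while bound to its receptor Plaur on cells that migrate, whereas tissue-type activator is known as the endothelial activator of fibrinolysis in the vessel. Thrombomodulin (Thbd) binds thrombin and turns it towards protein C, and the endothelial protein C receptor (Procr) presents protein C to that complex, so both are known as anticoagulant receptors of endothelium.

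The values are signals, the linear brightness of each probe set after the authors scaled every array to a target of 500. The scale factors ran from 3.05 to 13.3, the precision is limited by the number of arrays, and 6007 probe sets reached the mean signal of 200 required for testing. Levels of different probe sets cannot be set against each other on such arrays, so each gene was compared with itself. The labels give each culture an experiment number from 1 to 4, and cultures that share a number deviated together, so each result is also given within these pairs. Of the endothelial markers 2 of 14 with a probe set reached a mean signal of 200, Cd34 and Eng. Cdh5, the cadherin that defines endothelial junctions, averaged 12.3 in subconfluent and 13.6 in confluent cultures, and Tek, Tie1, Icam2, Vwf and Nos3 had means no higher than 27.9 in either group. Selp averaged 290 ± 61.5 in subconfluent and 95.6 ± 55.7 in confluent cultures (SD, n = 4 each). Its log2 difference of 1.29 was not tested, as its mean over the 8 arrays was 193. In the same order, means were 125 and 97.5 for Pecam1, 108 and 75.8 for Kdr, and 53.1 and 69.1 for Emcn. They were 33.2 and 88.7 for Flt1, and 17.3 and 42.3 for Sele. Fibroblast and pericyte markers reached 200 for 7 of 9 genes. Most listed markers of the labelled cell type thus had low signals. As levels of different probe sets cannot be compared, these signals do not settle which cells were present. The cultures are named here by density only.

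Plat, the tissue-type activator, was 2.85-fold lower in subconfluent cultures, with no overlap between the groups. Its signals were 1073, 857, 1569 and 1310 in subconfluent cultures 1 to 4, against 4192, 2446, 4202 and 3234 in confluent cultures 1 to 4. The highest subconfluent culture lay below the lowest confluent one, a separation in this direction that 8.54% of tested probe sets showed. The means were 1202 ± 307 in subconfluent and 3518 ± 847 in confluent cultures (SD, n = 4 each). On the log2 scale after adding 50 to each signal, which shrinks differences of dim probe sets, Plat fell by 1.51 ± 0.23 (SE, limma adjusted p = 0.00629). It ranked 61 of 6007 from the most negative difference, and 4.06% of tested probe sets were called lower. The difference was negative in each pair, at -1.92, -1.46, -1.39 and -1.27, and 22.1% of tested probe sets were lower in all 4 pairs. An exact two-sided permutation test over the 70 ways to split the cultures gave p = 0.0286, the smallest it can give. In such bulk cultures fewer cells of a type and less RNA per cell cannot be told apart.

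**Figure D1:**
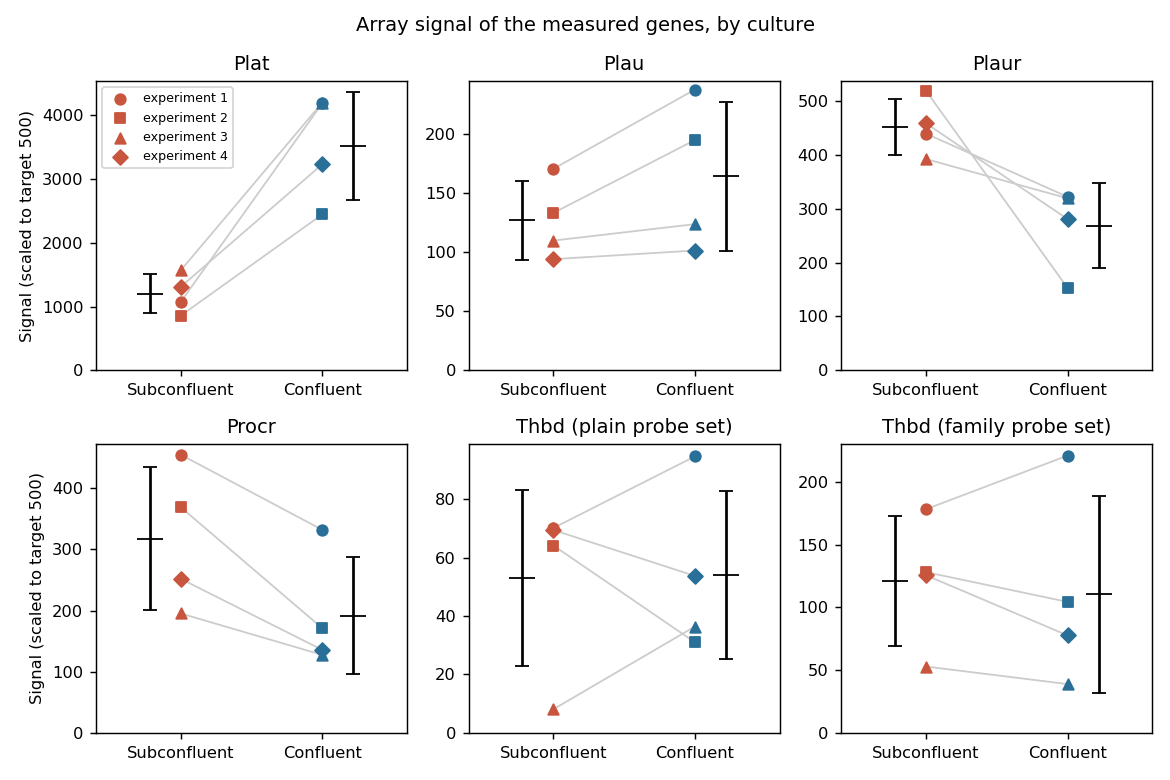
Signal of each measured probe set (vertical axes, linear and starting at 0) in the subconfluent and confluent cultures, with marker shapes for experiment numbers, grey lines joining cultures of the same number, and black bars for mean ± SD (n = 4). The 4 subconfluent Plat signals lie between 857 and 1569, below all confluent ones, while those of Plau and Thbd overlap between the groups.

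As the groups do not overlap for Plat, the direction of its fall was fixed in each chip lot and without any single culture. Only its size could vary. Of the 4 chip lots only A and C held arrays of both groups. The Plat difference was -1.92 on the lot A arrays (1 culture against 1), which are pair 1 again, and -1.52 on those of lot C (2 against 1). Leaving out single cultures gave differences from -1.67 to -1.37 with limma adjusted p from 0.00343 to 0.0265. Within lot C alone, the 3 arrays gave adjusted p = 0.150. Fibroblast and pericyte markers moved in the same direction. Their summed signal ran from 25540 to 39042 in subconfluent cultures and from 53971 to 79972 in confluent cultures. Of the 9 genes 7 reached the minimum signal, and 4 of these were called lower, as were 205 of all 4670 genes tested. These were Dcn, Col1a2, Lum and Col3a1, which encode matrix proteins of connective tissue, and 0 rose. The summed macrophage markers were also lower without overlap, at 1781 to 2350 in subconfluent and 2425 to 3838 in confluent cultures. Of these 8 genes only Cd14 reached the minimum signal, and it was not called (limma adjusted p = 0.0563). The summed endothelial markers, of which only Cd34 and Eng reached that signal, overlapped, at 2538 to 4103 in subconfluent and 2068 to 3921 in confluent cultures. So did those of smooth muscle (1805 to 9397 and 2924 to 4810) and of epithelium and mesothelium (1629 to 2416 and 1943 to 5488). Among smooth muscle markers Mylk fell by 1.84 (limma adjusted p = 0.0163). Acta2 and Tagln had differences of 1.14 and 1.47 that did not pass (adjusted p = 0.228 and 0.108). The part of other cell types in the Plat difference was not tested.

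Plau, urokinase, had low signals that did not separate the groups. They were 170, 133, 110 and 93.9 in subconfluent cultures 1 to 4, against 237, 195, 124 and 101 in confluent cultures 1 to 4. The ranges overlap, yet in every pair the subconfluent culture was the lower one. The means were 127 ± 33.2 in subconfluent and 164 ± 63.0 in confluent cultures (SD, n = 4 each), under the 200 required for testing over both groups. The log2 difference was -0.25, and the exact two-sided permutation test gave p = 0.371. The pair differences were -0.38, -0.42, -0.12 and -0.07, and 12.5% of probe sets under the minimum signal were lower in all 4 pairs. On the lot C arrays the difference was -0.20. With no minimum signal limma gave adjusted p = 0.724, or 0.522 with the pairs as a block. The 2 activators were thus measured with unlike certainty, Plat past the test and Plau under the minimum signal.

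Plaur, the urokinase receptor, had higher signals in subconfluent cultures. They were 439, 519, 392 and 459 in subconfluent cultures 1 to 4, against 322, 153, 319 and 281 in confluent cultures 1 to 4. The groups do not overlap, which held in this direction for 8.34% of tested probe sets. The means were 452 ± 52.4 in subconfluent and 269 ± 79.6 in confluent cultures (SD, n = 4 each). The log2 difference of 0.69 ± 0.21 (SE, 1.61-fold) missed the threshold in the unpaired limma fit (adjusted p = 0.0724, 95% interval 0.22 to 1.16), in which 2.75% of tested probe sets were called higher. With the pairs as a block it passed (adjusted p = 0.0472), in a fit that called 9.94% of tested probe sets higher. The exact two-sided permutation test gave p = 0.0286, a value that any probe set gets whose groups do not overlap.

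The size of the Plaur difference depended in part on 1 culture. Confluent culture 2 had the lowest signal, and its pair gave a log2 difference of 1.49, against 0.40, 0.26 and 0.62 in pairs 1, 3 and 4. Without that culture the difference was 0.49 (limma adjusted p = 0.0845), and without the whole pair 0.43 (adjusted p = 0.0920 with the block). Lots A and C do not hold confluent culture 2, and the Plaur difference was 0.40 on the lot A arrays and 0.36 on those of lot C. With chip lot as a fixed block it was 0.38 (adjusted p = 0.361). The macrophage markers, cells in which this receptor is abundant, summed to 1781 to 2350 in subconfluent and 2425 to 3838 in confluent cultures. Of these 8 genes only Cd14 reached a mean signal of 200 over the 8 arrays. Cd68 and Csf1r lay just under it, at 180 and 185 in subconfluent and 200 and 189 in confluent cultures. Fcgr3, Lyz2, Adgre1 and Itgam had means no higher than 58.5 in either group. Ptprc, the pan-leukocyte marker, averaged 12.8 in subconfluent and 9.58 in confluent cultures.

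Procr, the protein C receptor, was higher in the subconfluent culture of every pair, while the groups overlapped. Its signals were 455, 369, 195 and 252 in subconfluent cultures 1 to 4, against 332, 171, 128 and 136 in confluent cultures 1 to 4. Confluent culture 1 exceeded 2 of the subconfluent cultures. The means were 318 ± 117 in subconfluent and 192 ± 95.5 in confluent cultures (SD, n = 4 each). The log2 difference of 0.62 ± 0.30 (SE, 1.54-fold) did not pass the unpaired limma test (adjusted p = 0.213, 95% interval -0.03 to 1.28). With the pairs as a block its SE was 0.17 and it passed (adjusted p = 0.0320). The pair differences were 0.40, 0.92, 0.47 and 0.70, and 20.7% of tested probe sets were higher in all 4 pairs. On the arrays of lot A it was 0.40, and on those of lot C 0.62. Without any 1 pair the blocked fit no longer called it, with adjusted p from 0.0718 to 0.110, and the same held for Plaur, from 0.0693 to 0.120. With the block and no minimum signal, a setting chosen after seeing the data, neither passed (adjusted p = 0.0825 for Procr and 0.113 for Plaur). The exact two-sided permutation test, which ignores the pairs, gave p = 0.114.

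**Figure D2:**
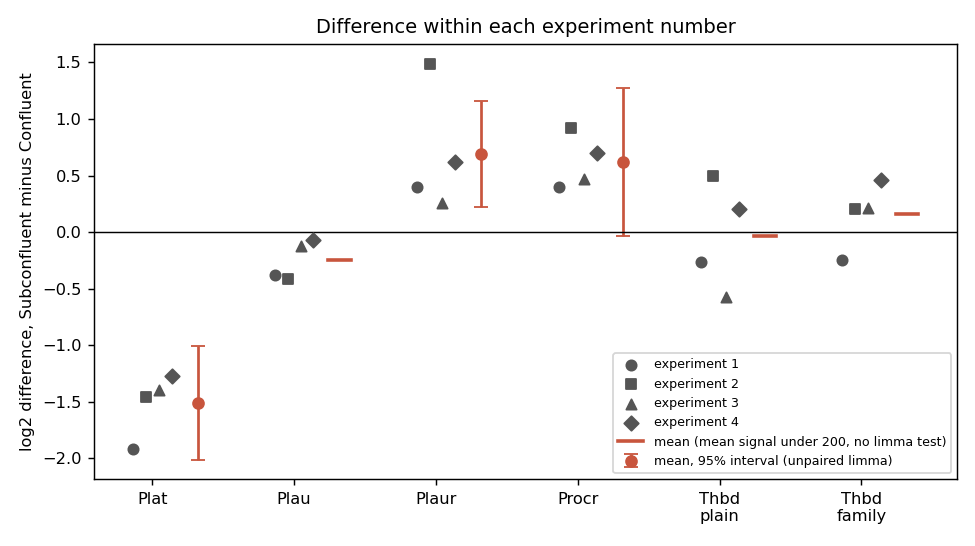
Log2 difference of signal + 50, subconfluent minus confluent (vertical axis), within each experiment number (grey markers) and as the mean over pairs (red, with the 95% interval of the unpaired limma fit for the tested probe sets). All 4 markers lie below 0 for Plat and Plau and above 0 for Plaur and Procr, and experiment 2 of Plaur stands at 1.49.

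Thbd, thrombomodulin, showed no difference between the groups that exceeded the spread, on either of its probe sets, and both lay under the minimum signal. The first, called the plain probe set here, had signals of 70.1, 64.1, 8.1 and 69.4 in subconfluent cultures 1 to 4, against 94.6, 31.0, 36.4 and 53.7 in confluent cultures 1 to 4. Subconfluent culture 3 stood far below the other subconfluent cultures. The second, called the family probe set because its suffix stands for a sequence that members of a gene family share, had 178, 128, 52.9 and 126 in subconfluent cultures 1 to 4. Its confluent signals were 221, 104, 38.9 and 77.7. The log2 differences were -0.04 for the plain and 0.16 for the family probe set, opposite in sign. The exact two-sided permutation tests gave p = 0.914 and p = 0.743, in the same order. On the arrays of lots A and C the plain probe set gave -0.27 and -0.05, and the family probe set -0.25 and 0.60. At these low signals a change could not be told from the spread, so the test does not show that Thbd was equal in both densities.

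The genes differed in where their spread lay. The sum of squares of the 8 log2 values was split into the part that goes with the density group (1 of 7 degrees of freedom), with the experiment number (3 of 7) and the remainder (3 of 7). For Plat 85.2% went with the group and 12.5% with the number, and for Plaur 62.1% and 8.28%. For Procr the group held 35.2% and the number 61.0%, leaving 3.83%. For Plau the number held 80.7%, and for Thbd it held 71.6% on the plain and 91.5% on the family probe set. Over all tested probe sets the medians were 21.8% for the group and 46.3% for the number. Procr and the family probe set of Thbd shared an order of the cultures: in both groups culture 1 was highest, then 2, then 4, then 3. Plau likewise kept 1 order in both groups, with culture 1 highest and culture 4 lowest. Plat was highest in culture 3 and lowest in culture 2 in both groups, with 2.23% left to the remainder, while the order of Plaur differed between the groups. Both cultures 1 were on lot A arrays and both cultures 3 on lot C arrays, while those of number 2 and of number 4 were on unlike lots. What else cultures of the same number have in common is not stated in the labels. The part of the chip lot in the spread that goes with the number was not tested.

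**Figure D3:**
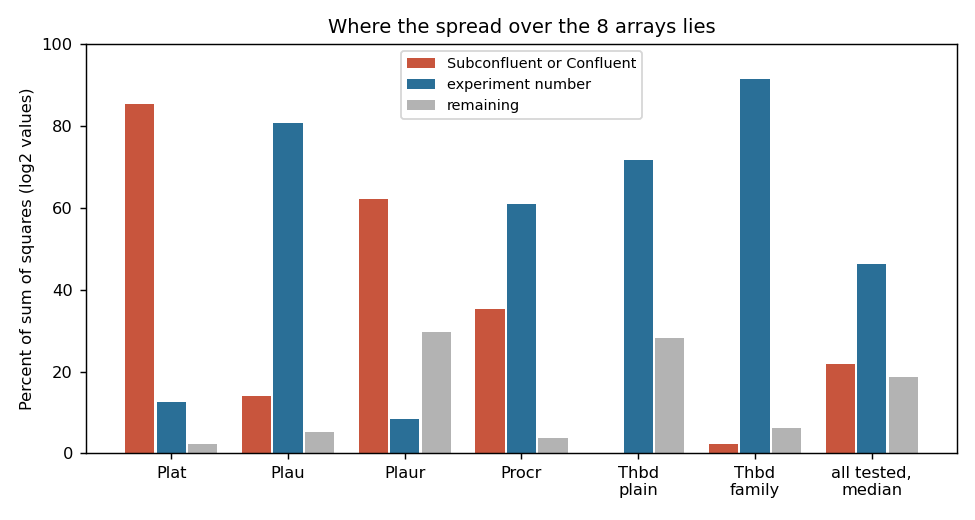
Percent of the sum of squares of the log2 values over the 8 arrays (vertical axis, from 0) that goes with density group, experiment number and the remainder, for each measured probe set and as the median of all tested probe sets. The group bar is tallest for Plat at 85.2% and Plaur at 62.1%, and the experiment number bar is tallest for Procr, Plau and Thbd.

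Genes with the most similar profiles were found by Pearson correlation of log2 values over the 8 arrays, a description in which all points share the same arrays and, for Plat, the difference between the groups. Closest to Plat were Gstm1, a glutathione transferase gene (r = 0.989), Grcc10 (r = 0.989) and Psme1, a proteasome activator subunit gene (r = 0.987). All 3 fell, with log2 differences of -1.31, -1.43 and -1.18, and the Gstm1 probe set can detect family members. Closest to Procr was Bdnf, which encodes a neurotrophin, at r = 0.992. Bdnf had signals of 2978, 2128, 972 and 1415 in subconfluent cultures 1 to 4 and 1891, 938, 615 and 803 in confluent cultures 1 to 4. Its cultures stood in the same order as those of Procr within both groups, and after the group means were subtracted the correlation was 0.989. The next for Procr were Rpl7l1 (r = 0.968) and Mrpl9, a mitochondrial ribosomal protein gene (r = 0.952). Closest to Plaur were Bcl10, an adaptor gene of immune receptor signalling (r = 0.950), Pam16, of mitochondrial protein import (r = 0.946), and Ankrd1, an ankyrin repeat protein gene (r = 0.941). Each of these had its lowest signal in confluent culture 2, as did Plaur, at 363 for Bcl10, 77.5 for Pam16 and 1702 for Ankrd1.

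The RefSeq promoter table (GRCm38.p6) held windows of 300 bases, 250 before to 50 after an annotated start, for 2 of the 5 measured genes, the ones that were higher in every pair. They are shown because Plaur and Procr moved in the same direction and because each holds 1 copy of the AP-1 motif TGANTCA, in capitals, which reads alike on both strands. The Plaur window lies at chr7:24462233-24462532 and the Procr window at chr2:155750967-155751266, both on the plus strand.
Plaur: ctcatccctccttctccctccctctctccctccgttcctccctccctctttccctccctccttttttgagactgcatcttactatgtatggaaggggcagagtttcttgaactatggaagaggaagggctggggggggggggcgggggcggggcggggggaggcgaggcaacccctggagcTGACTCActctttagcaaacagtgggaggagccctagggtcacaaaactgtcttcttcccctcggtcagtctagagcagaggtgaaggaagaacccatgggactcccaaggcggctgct
Procr: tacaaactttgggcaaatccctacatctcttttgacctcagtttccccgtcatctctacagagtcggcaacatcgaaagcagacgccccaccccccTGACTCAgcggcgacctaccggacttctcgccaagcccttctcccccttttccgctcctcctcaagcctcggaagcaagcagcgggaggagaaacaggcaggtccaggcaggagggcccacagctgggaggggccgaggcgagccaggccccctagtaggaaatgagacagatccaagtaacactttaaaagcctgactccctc
The match begins 69 bases before the start in Plaur and 154 bases before it in Procr. The share of windows with this motif was 7.81% over all 32851 in that resource. The motif GGAATG, associated with TEAD factors, was found on neither strand of either window (14.7% of all windows hold it). CACCC, associated with Kruppel-like factors, occurred once in Procr and not in Plaur (57.5% of windows), and it does not overlap the AP-1 motif there. These are matches of letters and not measured binding sites.

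Among other genes of the plasminogen system, S100a10 rose in subconfluent cultures and Mmp3, Igf2r and Mmp14 fell. The list of 32 genes, which excludes the members, held inhibitors, surface receptors, integrins and proteases linked to plasmin, and 26 had a probe set and 16 reached the minimum signal. Of these 16, 1 rose and 3 fell (3 and 5 with the pairs as a block), with a median log2 difference of -0.17, against 0.00 over the 4670 genes tested. Among all genes tested 132 rose and 205 fell (471 and 567 with the block). S100a10, which encodes a light chain that binds plasminogen at the cell surface, rose by 0.86 ± 0.22 (SE, limma adjusted p = 0.0413). It averaged 6709 ± 1252 in subconfluent and 3747 ± 1117 in confluent cultures (SD, n = 4 each). Its partner Anxa2, annexin A2, had a difference of 0.61 (adjusted p = 0.112; 0.0203 with the block), higher in all 4 pairs. Mmp3, stromelysin, a matrix protease, averaged 2077 ± 995 in subconfluent and 12602 ± 3817 in confluent cultures (SD, n = 4 each). On the log2 scale it fell by 2.65 ± 0.36 (SE, limma adjusted p = 0.00361). Its difference was -3.09 on the lot A and -2.23 on the lot C arrays. Igf2r, a multifunctional receptor that can bind plasminogen and Plaur, fell by 0.66 (limma adjusted p = 0.0298). Mmp14, a membrane-bound matrix protease, fell by 0.77 (limma adjusted p = 0.0470), with overlapping groups. Its difference was 0.02 in pair 2, against -1.19, -0.93 and -0.995 in pairs 1, 3 and 4. Mmp14 missed the threshold with median centring (limma adjusted p = 0.0599) and with no variance trend (limma adjusted p = 0.0525). S100a10, Igf2r and Mmp14 each lost their call without any 1 culture other than confluent culture 2, with adjusted p up to 0.115, and Mmp3 kept its call in all 8 such fits. The differences in these fits ran from 0.69 to 1.03 for S100a10 and from -0.75 to -0.62 for Igf2r. With the pairs as a block and 1 pair left out, S100a10 (adjusted p from 0.00496 to 0.0208) and Igf2r (0.0171 to 0.0419) kept their calls. Mmp14 did not pass without pair 1, 3 or 4 (0.0983 to 0.100). Beyond Anxa2, Serpinb6a, Plgrkt and the urokinase inhibitor Serpinb2 missed the threshold in the unpaired limma fit and passed with the block. Their differences were 0.50 (blocked adjusted p = 0.0108), -0.54 (blocked adjusted p = 0.0316) and -0.89 (blocked adjusted p = 0.0116), in the same order. These 4 genes were chosen after their values were seen.

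**Figure D4:**
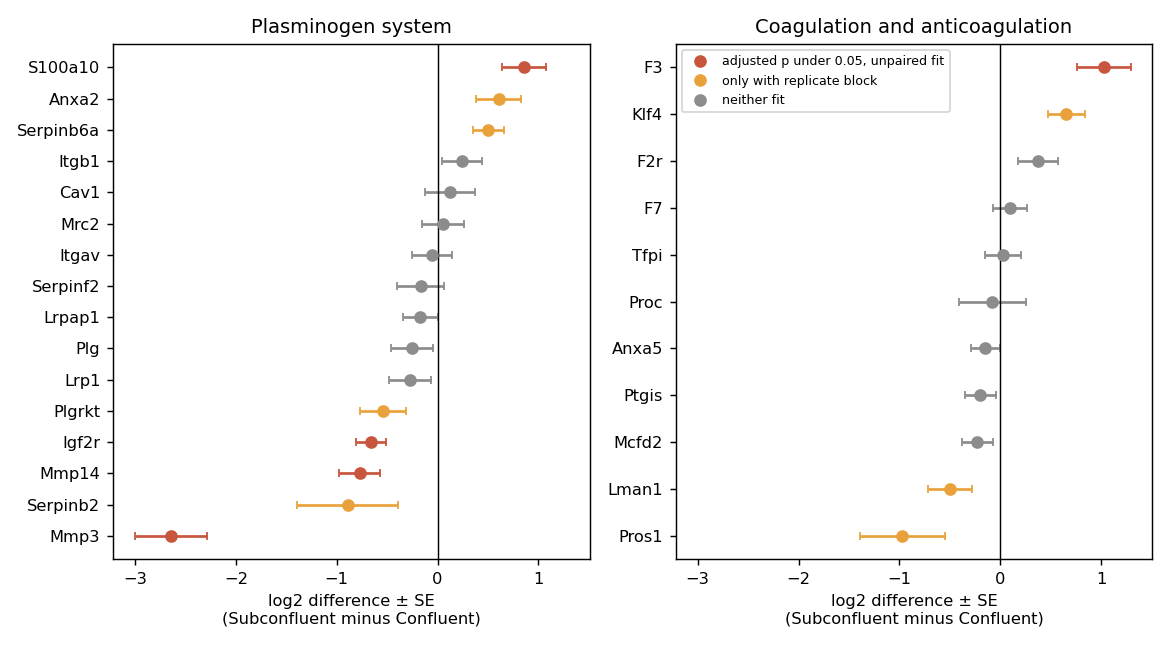
Log2 difference ± SE, subconfluent minus confluent (horizontal axes), of the tested genes of the plasminogen system (left) and of coagulation and its restraint (right), coloured by whether they passed at an adjusted p under 0.05 in the unpaired limma fit, only with the replicate block, or in neither. S100a10 and F3 lie highest at 0.86 and 1.03, and Mmp3 lies lowest at -2.65.

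In the coagulation list, F3 was the gene that rose. The list of 37 genes held clotting factors, their inhibitors and receptors of the vessel wall, and 33 had a probe set and 11 reached the minimum signal. Of these 11, 1 rose and 0 fell in the unpaired limma fit, against 132 and 205 of the 4670 genes tested. In that fit 4 of the 11 had an unadjusted p under 0.05, as did 1270 of the 4670. With the pairs as a block 2 rose and 2 fell, against 471 and 567 of the 4670. The median was -0.08. F3, tissue factor, the receptor that starts clotting, averaged 1406 ± 614 in subconfluent and 637 ± 163 in confluent cultures (SD, n = 4 each). Its rise was 1.03 ± 0.26 (SE, limma adjusted p = 0.0424), and leaving out any 1 culture other than subconfluent culture 3 ended the call, with adjusted p from 0.0581 to 0.0945 and differences over all 8 such fits from 0.77 to 1.17. With the pairs as a block F3 passed (adjusted p = 0.00480), also without any 1 pair (0.0100 to 0.0288). On the lot A arrays the difference was 0.95, and on those of lot C 1.12. Tfpi, the inhibitor of the tissue factor pathway, averaged 482 ± 92.6 in subconfluent and 469 ± 73.9 in confluent cultures (SD, n = 4 each), and its difference of 0.03 did not pass (adjusted p = 0.947). It was 0.05 on the lot A and 0.36 on the lot C arrays. Klf4, Lman1 and Pros1 missed the threshold in the unpaired limma fit and passed with the block. The transcription factor gene Klf4 had a difference of 0.66 (blocked adjusted p = 0.0231). Lman1, the cargo receptor gene of clotting factors, had -0.50 (blocked adjusted p = 0.0245). Pros1, protein S, the cofactor of protein C, had -0.97 (blocked adjusted p = 0.0144). These 3 were chosen after their values were seen. Proc, protein C itself, had a difference of -0.08 (adjusted p = 0.916), and was likewise named beyond the rule. The F3 promoter window held 2 copies of the AP-1 motif, 0 of the TEAD motif and 4 of CACCC. Each Tfpi window held 0, 0 and 1, in the same order. Over all windows 7.81%, 14.7% and 57.5% hold these motifs. A part of any of these motifs in the differences was not tested.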

How the data were processed

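The deposited values are signal, 1 linear value for each probe set and array, which the authors computed by Affymetrix's statistical algorithm and scaled to a target of 500 on each array, per the labels. The sources used here name no software version. After leaving out 2% of probe sets at each end, array means lay between 499 and 500, so nothing was rescaled. Controls made up 66 of 12488 probe sets and were dropped. The annotation of the array gave 1 symbol for 10833 of the others, several for 396 and none for 1193. For 10817 of those with 1 symbol the gene identifier was found in RefSeq. Probe sets whose signal averaged 200 or more across the 8 arrays were tested as log2(signal + 50) with limma 3.58.1 in R 4.3.3 (lmFit, eBayes with trend, two-sided, Benjamini-Hochberg adjustment over 6007 probe sets, threshold 0.05, no block). The script was tested on simulated data. Tables and plots used Python 3.11.15, pandas 2.3.3, numpy 2.4.6 and matplotlib 3.10.9.

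The labels number each culture as an experiment from 1 to 4. Deviations from the group means correlated at 0.486, 0.357, 0.516 and 0.348 between cultures of the same number, and at most 0.0681 otherwise, and the numbers were therefore treated as pairs. The p-values measure the spread between these cultures, which may in part be technical. A gene in a list stands for its probe set with the highest mean signal. The text names all members, up to 4 called genes per list, F3 and Tfpi, and the 3 most correlated genes of each tested member. The members and lists were chosen with earlier results of these data known. Alternatives covered pseudocount, filter, scaling, scale factor, chip lot, variance model, pairing and left-out cultures.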

Additional observations from a re-analysis of the deposited data

Results flagged for a closer look

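Of 24 groups of 4 signals checked (members and named genes, both densities), 1 held a culture far from the others, where chance gives about 1 in 20. Subconfluent culture 3 had a signal of 8.1 on the plain probe set of Thbd, against 64.1 to 70.1 in the other 3 subconfluent cultures. On the log2 scale the gap was 0.929 of the group's range, above Dixon's critical value for 4 samples. The family probe set also had its lowest subconfluent signal there, at 52.9.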

How the results depend on the processing

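The fall of Plat kept its call and direction under every alternative that gave a test except within lot C, where 3 arrays gave -1.52 with no call, and it was -1.92 within lot A. Plaur, at 0.69, passed with the replicate block and with array weights (0.65), and Procr, at 0.62, passed with the block. Neither passed with the block and no filter. The block changed no other member's call. A minimum signal of 500 left Plaur and Procr untested. Tfpi, near 0, ran from -0.0653 to 0.151 without 1 culture, and was -0.0713 and -0.00101 without pair 3 or 4 in the blocked fit. It was 0.36 within lot C and 0.23 with the lot as a fixed block. The causes of these shifts were not tested. Low signal limits Plau and Thbd.

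Probe sets called higher and lower numbered 165 and 244. With the replicate block they were 597 and 679, with the block and no filter (chosen after seeing the data) 362 and 500, with no filter 72 and 136, with the lot as a random block 453 and 485, within lot C 2 and 3. With the lot as a fixed block 368, and with array weights 311, were higher. Without 1 culture the counts ran from 18 to 342 and from 80 to 345, lowest without subconfluent culture 4 and highest without confluent culture 2. Without 1 pair the blocked counts were 223 to 652 and 353 to 618, among them 258 higher without pair 1, 652 and 618 without pair 2, 367 lower without pair 3 and 413 without pair 4.

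In the plasminogen list 1 gene was called higher and 3 lower. The counts were 3 and 5 with the block, 0 and 1 with no filter, and 0 and 0 within lot C. The higher count was 3 with the lot as a random block, 2 with array weights, and 2 with the block and no filter. Without 1 culture the counts were 0 to 2 and 1 to 3, and without 1 pair 1 to 3 and 3 to 4. In the coagulation list 1 was called higher and 0 lower. The higher count was 2 with the block, a minimum of 500, quantile normalization, median centring, the scale factor, the lot as a random block or array weights. It was 0 with no filter, the lot as a fixed block, or lot C, and 0 to 1 without 1 culture. The lower count was 2 with the block, filtered or not, and 0 to 1 without 1 pair.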
